A study of Mus musculus with 5 samples.

Results

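Interferon-stimulated genes are those whose transcription rises in cells that have sensed an interferon, and their level alone does not show such sensing. Of the 55450 genes in the deposited matrices, 35 such genes were followed here across the cell types of injured mouse cortex. The genes were taken by their symbols, and all 35 were found. The list was chosen with earlier results of these data known. Cells came from the cortex of C57BL/6J mice in 5 libraries of droplet single-cell RNA sequencing (10x Genomics). The groups were a sham operation and a traumatic brain injury (TBI) sampled at day 1, 3, 7 or 14. The injured libraries were taken at the injury site, and the labels name no site for sham. There was 1 library per group, and the labels do not give how many mice went into each. Each difference below is therefore a difference between 2 libraries, with no replicate and no test. Levels are in CPM, the unique molecular identifiers (UMIs) of a gene in a cell class of a library, scaled to the same total in every class and library, and all intervals are 95% intervals that cover counting error only.

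Type I interferons (interferon alpha and beta) act on a receptor present on nearly all cells. The receptor's signal brings a complex that holds STAT2 and IRF9 to the interferon-stimulated response element (ISRE) near the genes followed here. Interferon gamma, made mainly by T cells and natural killer (NK) cells, acts on another receptor, and its signal ends at the gamma-activated site (GAS). The products block steps of viral growth, sense foreign nucleic acids or feed back on the pathway, and in the brain microglia, astrocytes and other glia can all respond.

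An ISRE core stood in the promoters of most of these genes for which a sequence was at hand. All 35 are protein-coding and lie on 14 chromosomes of GRCm38, and 14 lie within 100000 bases of another of the 35. Of the 35, 12 overlap another gene, 2 of them on the same strand and 11 on the other, and no source used here says whether the counting used strand. RefSeq gave promoter windows, of 250 bases before to 50 bases after a gene's start (GRCm38.p6), for 28 of the 35. Zbp1, Oas2, Mx1, Ifi204, Usp18, Ifi27l2a and Rtp4 had none. The core of an ISRE, the letters GAAA, any 2 bases and GAAA again, was searched on both strands and stood in 19 of the 34 windows of these 28 genes (55.9%), against 3.44% of all 32851 windows. The GAS core, TTCNNNGAA, which has the same form on both strands, stood in 6 of the 34 windows (17.6%), against 8.30% of all windows. The motifs overlapped in 2 windows. The ISRE core alone was found in 14 genes, both cores in Bst2, Ifitm3 and Oas1a, and the GAS core alone in Ifi35, Ifit2 and Irf1. Neither stood in the windows of Cmpk2, Ifi44, Irf7, Irf9, Oasl1, Oasl2, Slfn2 and Xaf1, which says only that these letters are not in these windows.

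Promoter stretches of 6 genes whose levels are described below are shown to let the arrangements be compared, each 5′ to 3′ on the strand of its gene, with ISRE or GAS cores in capitals. Isg15 (chr4:156200819-156201068, minus strand) has 3 overlapping ISRE cores. Ifit1 (chr19:34640639-34640870, plus strand) and Ifit3 (chr19:34583279-34583528, plus strand) have 2 each. Rsad2 (chr12:26456453-26456702, minus strand) has 1. Bst2 (chr8:71537473-71537722, minus strand) has 2 ISRE cores and 1 GAS core, and Irf1 (chr11:53769764-53770013, plus strand) has a single GAS core.
Isg15: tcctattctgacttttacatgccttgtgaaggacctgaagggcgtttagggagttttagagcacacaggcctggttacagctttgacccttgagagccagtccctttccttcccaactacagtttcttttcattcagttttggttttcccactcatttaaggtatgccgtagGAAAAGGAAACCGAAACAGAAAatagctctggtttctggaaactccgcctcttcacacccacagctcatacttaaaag
Ifit1: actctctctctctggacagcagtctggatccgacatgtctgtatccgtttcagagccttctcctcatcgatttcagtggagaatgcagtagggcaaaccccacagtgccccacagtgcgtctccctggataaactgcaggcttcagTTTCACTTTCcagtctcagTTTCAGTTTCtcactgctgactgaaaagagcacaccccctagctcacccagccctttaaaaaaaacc
Ifit3: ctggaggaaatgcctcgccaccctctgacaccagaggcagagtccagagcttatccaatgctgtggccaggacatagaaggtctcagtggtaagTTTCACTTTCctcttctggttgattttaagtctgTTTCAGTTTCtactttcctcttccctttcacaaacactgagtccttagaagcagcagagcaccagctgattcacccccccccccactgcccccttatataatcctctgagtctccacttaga
Rsad2: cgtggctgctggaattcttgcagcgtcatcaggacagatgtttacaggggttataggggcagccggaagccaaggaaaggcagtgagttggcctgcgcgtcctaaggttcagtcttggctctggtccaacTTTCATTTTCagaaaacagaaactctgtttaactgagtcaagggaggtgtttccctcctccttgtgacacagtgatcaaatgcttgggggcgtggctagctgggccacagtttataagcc
Bst2: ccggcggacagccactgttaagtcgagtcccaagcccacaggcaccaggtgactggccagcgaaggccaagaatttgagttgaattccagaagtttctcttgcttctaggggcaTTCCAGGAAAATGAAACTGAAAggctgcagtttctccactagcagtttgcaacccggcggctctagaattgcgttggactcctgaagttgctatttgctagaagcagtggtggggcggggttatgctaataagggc
Irf1: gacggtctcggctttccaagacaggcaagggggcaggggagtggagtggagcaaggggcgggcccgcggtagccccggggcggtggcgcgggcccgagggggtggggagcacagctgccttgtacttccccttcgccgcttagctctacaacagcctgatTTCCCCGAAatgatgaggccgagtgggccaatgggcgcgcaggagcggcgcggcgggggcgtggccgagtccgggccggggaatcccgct

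The 5 libraries held 60574 barcodes, of which 55321 were kept. Total UMIs ran from 11279455 in sham to 129161094 at day 14, and the median per barcode from 773 to 8558. The injured libraries were thus read more deeply, and the value of 1 UMI in the microglia/macrophage class ran from 0.269 CPM (sham) down to 0.0139 CPM (day 14). Of the barcode sequences, 383 occurred in 2 or more libraries. Doublet calls removed 3.16% to 8.52% of barcodes, and 12.7% of the day 7 barcodes were over the mitochondrial limit, against at most 0.499% in the other libraries. The cells fell into 30 clusters, 29 of which could be named from marker genes, and none was named as mature neurons. Most clusters came largely from 1 library, so a difference between libraries within a class is also a difference between clusters. The 35 genes were left out of the clustering.

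The summed level of the 35 genes was higher than in sham in all 4 injured libraries in microglia/macrophages, astrocytes and oligodendrocytes. The ratio to sham was larger in astrocytes and oligodendrocytes, and the level itself was higher in microglia/macrophages and endothelial cells than in astrocytes and oligodendrocytes in each of the 5 libraries. In microglia/macrophages (3885 to 6828 cells per library), the cells of clusters named as microglia or as monocytes and macrophages, the genes summed to 2852 CPM in sham (2798 to 2906) and to 3568, 3907, 5317 and 5824 CPM at days 1, 3, 7 and 14. The log2 ratios to sham were 0.32, 0.45, 0.90 and 1.03 (1.00 to 1.06 at day 14). In astrocytes (236 to 4469 cells) the sum was 365 CPM in sham (344 to 386) and 1217, 793, 1416 and 2520 CPM in the injured libraries. Their log2 ratios were 1.74, 1.12, 1.96 and 2.79 (2.69 to 2.88 at day 14), and the day 3 library stood lowest of the injured ones. That order rested on the clustering: at resolution 2, where 1569 day 1 cells with 43.2% of the class's UMIs went unnamed, the day 1 ratio was 0.66, below the 1.07 of day 3. In oligodendrocytes (377 to 2040 cells) the sum was 238 CPM in sham (218 to 259) and 477, 672, 916 and 1095 CPM, with log2 ratios of 1.00, 1.5, 1.95 and 2.20 (2.08 to 2.33 at day 14).

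**Figure D1:**
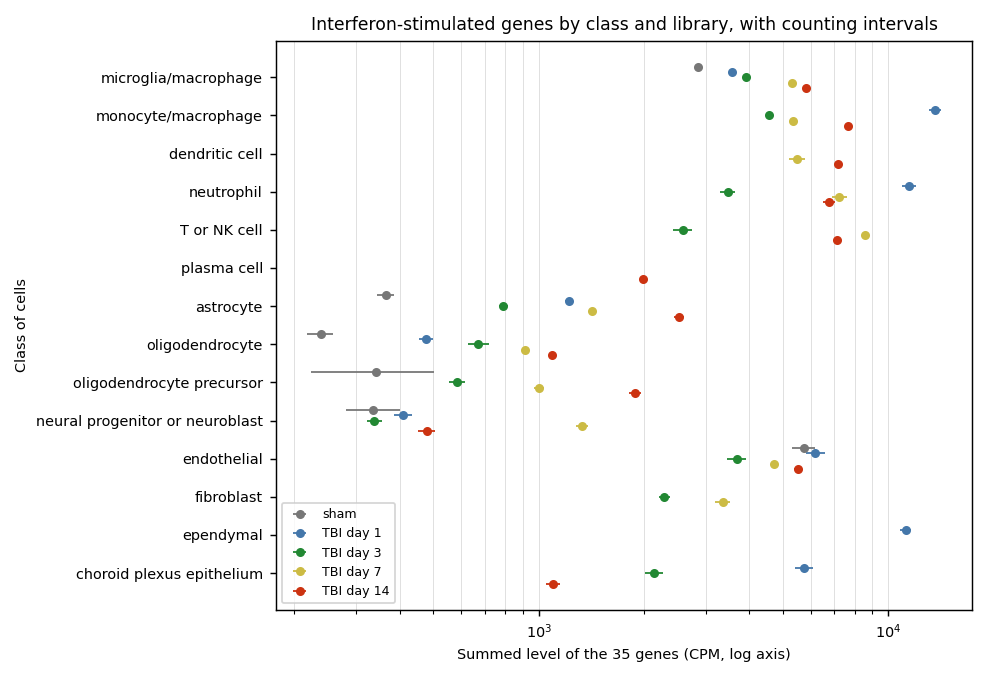
Summed level of the 35 interferon-stimulated genes in CPM (log axis) by cell class, for classes with at least 50 cells, one point per library with its 95% counting interval. Astrocytes run from 365 CPM in sham to 2520 CPM at day 14, while endothelial cells stand between 3683 and 6173 CPM in every library.

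Which clusters carried these values differed between libraries. The microglia/macrophage cells were mostly cluster 0 in sham (4300 cells, 2707 CPM), which is led by the heat shock genes Hspa1b and Hspa1a, cluster 9 at day 1 (3588 cells, 3377 CPM), cluster 14 at day 3 (2117 cells, 3646 CPM), cluster 7 at day 7 (5828 cells, 5297 CPM) and cluster 23 at day 14 (4256 cells, 4847 CPM). The monocyte/macrophage-like cluster 15, which also expresses MHC class II genes, reached 10850 CPM at day 7 (234 cells) and 9626 CPM at day 14 (892 cells). Microglia-like clusters alone gave 2728, 3347, 3600, 5314 and 4970 CPM from sham to day 14. In astrocytes, cluster 25 (3329 cells) made up most of day 1 and summed to 1380 CPM (1352 to 1409). Cluster 2, present in both libraries, held 441 CPM in sham (2180 cells) and 387 CPM at day 1 (1072 cells). The higher day 1 level of the astrocyte class thus lay in cluster 25, which is led by Ptx3, Lif and Hbegf, and not in cluster 2. Astrocytes were mainly cluster 16 at day 3 (1296 cells), cluster 18 at day 7 (1751 cells) and cluster 18 again at day 14 (155 cells, 2693 CPM). Oligodendrocytes were mainly cluster 3 in sham, at day 1 and at day 3, cluster 22 at day 7 (1684 cells) and cluster 20 at day 14 (1926 cells).

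In microglia/macrophages the single genes did not move as a block. Some stood higher after injury. Others stood lower, most of all at day 3, where the share lower was near that over all genes. A gene was counted as measured when its mean over the 2 libraries was at least 10 CPM. Of the measured genes, 7 of 30 were at least 2-fold higher and 1 lower at day 1, 7 of 29 higher and 8 lower at day 3, 17 of 33 higher and 0 lower at day 7, and 17 of 34 higher and 2 lower at day 14. Over all measured genes of this class the shares at least 2-fold higher were 7.79%, 10.1%, 4.92% and 6.58%, and the shares lower were 10.3%, 24.4%, 14.6% and 26.5%. The median log2 ratio of the measured genes of the list was 0.00, -0.32, 1.01 and 1.00, beside -0.06, -0.35, -0.36 and -0.54 over all measured genes. A gene low in sham could be measured only if it stood high after injury. Among the 28 genes with at least 10 CPM in sham, 5, 5, 12 and 11 were higher and 1, 9, 0 and 2 lower, where 5.52%, 6.47%, 3.01% and 4.0% of all genes with that sham level were higher and 12.2%, 29.0%, 16.8% and 30.4% lower.

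Among the IFIT genes, whose products bind foreign RNA, Ifit2 stood at 14.0 CPM in sham, then 22.4, 91.8, 154 and 76.8 CPM at days 1, 3, 7 and 14 (log2 ratios 0.68, 2.71, 3.46 and 2.46). Ifit1 stood at 16.7 CPM in sham, then 33.9, 59.7, 83.5 and 50.2 CPM after injury (1.02, 1.84, 2.32 and 1.59). Ifit3 stood at 40.9 CPM in sham, then 41.9, 67.3, 147 and 89.6 CPM (0.04, 0.72, 1.84 and 1.13). All 3 were highest at day 7, and they lie near each other on chromosome 19. Ifit3 has a near-identical copy, Ifit3b, and no source used here says how reads that fit both were assigned, so its values are uncertain. Isg15, a ubiquitin-like protein joined to other proteins, stood at 52.4 CPM in sham, then 106, 105, 178 and 213 CPM (1.02, 1.00, 1.76 and 2.02). Usp18, the protease that removes Isg15 and dampens the type I receptor, took another course, with 41.7 CPM in sham, then 33.3, 10.1, 54.9 and 44.9 CPM after injury. Its log2 ratio was -2.04 at day 3 and within 0.40 of sham at the other days.

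The oligoadenylate synthetases and their relatives, which make or resemble the makers of the RNase L activator, were split. Oasl1 stood at 1.34 CPM in sham (5 UMIs), then 10.7, 18.6, 30.5 and 29.0 CPM, a log2 ratio of 4.50 at day 7 and 4.43 at day 14. Oasl2 stood at 38.5 CPM in sham, then 41.7, 23.4, 124 and 120 CPM (0.12, -0.71, 1.69 and 1.64). Oas3 rested on 3 UMIs in sham, 0.807 CPM, and stood at 2.19, 3.39, 15.3 and 28.6 CPM after injury. Oas1a and Oas2 stayed between 22.2 and 60.9 CPM and between 5.11 and 18.7 CPM, and neither was 2-fold from sham while measured. Oas2 had a log2 ratio of -1.51 at day 3, where its mean was under 10 CPM. Rsad2, which encodes viperin, an enzyme that makes a chain-ending nucleotide, showed one of the largest ratios. It stood at 6.72 CPM in sham, then 41.6, 113, 113 and 86.5 CPM (2.63, 4.07, 4.07 and 3.68). Its neighbour Cmpk2, a nucleotide kinase, stood at 5.65 CPM in sham, then 5.36, 6.38, 17.6 and 13.9 CPM (-0.07, 0.17, 1.64 and 1.30).

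The transcription factors of the pathway stood mostly level or lower. Irf9, the DNA-binding partner of STAT2, stood at 124 CPM in sham, then 87.5, 49.3, 77.4 and 56.4 CPM after injury (-0.50, -1.33, -0.68 and -1.13). Irf1, a factor induced through GAS sites, stood at 123 CPM in sham, then 80, 81.0, 113 and 77.8 CPM, and Stat2 between 48.1 and 71.0 CPM in the 5 libraries. Irf7, which amplifies the making of type I interferon, was the exception: 53.8 CPM in sham, then 45.8, 47.8, 168 and 150 CPM (-0.23, -0.17, 1.64 and 1.48), near sham early and higher late.

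Of the nucleic acid sensors, those for RNA and those for DNA or Z-form nucleic acids differed. Zbp1, a sensor of Z-form nucleic acids, stood at 9.68 CPM in sham, then 45.0, 45.5, 64.7 and 109 CPM (2.22, 2.23, 2.74 and 3.5). Ifi204, a DNA sensor, stood at 44.6 CPM in sham, then 182, 130, 206 and 201 CPM (2.02, 1.54, 2.20 and 2.17). Both were at least 2-fold higher at every day. Ifih1, which encodes the RNA sensor MDA5, stayed between 32.3 and 54.3 CPM. Ddx58, which encodes the RNA sensor RIG-I, stood at 52.4 CPM in sham, then 32.4, 14.4, 45.5 and 38.4 CPM, a log2 ratio of -1.87 at day 3.

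Of the membrane restriction factors, Ifitm3 was at least 2-fold higher in all 4 injured libraries and Bst2 at days 7 and 14. Ifitm3, which blocks virus entry from endosomes, stood at 165 CPM in sham, then 567, 720, 595 and 1118 CPM (1.78, 2.13, 1.85 and 2.76). Bst2 (tetherin), which holds new virus at the cell surface, stood at 308 CPM in sham, then 433, 382, 620 and 742 CPM (0.49, 0.31, 1.01 and 1.27). Of the large GTPases, Gbp2 stood at 7.53 CPM in sham, then 12.4, 10.6, 30.1 and 57.8 CPM (0.72, 0.50, 2.0 and 2.94), while Gbp3 stayed between 9.99 and 18.4 CPM. Mx1, whose allele in C57BL/6 mice is known to encode no working protein, stood at 26.4 CPM in sham, then 25.7, 21.1, 55.2 and 30.1 CPM. The Schlafen genes went separate ways: Slfn5 stood at 50 CPM in sham, then 106, 91.7, 196 and 143 CPM (1.08, 0.87, 1.97 and 1.51). Slfn8 stood at 141 CPM in sham, then 92.5, 45.7, 103 and 54.4 CPM (-0.61, -1.63, -0.46 and -1.38), and Slfn2 between 182 and 286 CPM.

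Ifi27l2a, which encodes a small hydrophobic protein, held the most UMIs of the 35 in this class in each library, from 15.1% to 28.9% of them. It stood at 429 CPM in sham, then 607, 1128, 1086 and 1373 CPM (0.50, 1.39, 1.34 and 1.68). Ifi44 stood at 4.57 CPM in sham, then 3.17, 2.99, 13.3 and 34.0 CPM, a log2 ratio of 2.90 at day 14. Rtp4, a chaperone of membrane receptors, stood at 219 CPM in sham, then 97.5, 63.4, 134 and 117 CPM (-1.17, -1.79, -0.71 and -0.91). Xaf1, a partner of the apoptosis inhibitor XIAP, stood at 148 CPM in sham, then 75.2, 63.5, 96.0 and 82.5 CPM (-0.98, -1.22, -0.63 and -0.85). Every injured library lay below sham for both. Trim30a, a restraint on Toll-like receptor signalling, and Ifi35 were lowest at day 3, with 67.5 CPM against 222 in sham and 26.5 CPM against 84.7 in sham, and Phf11b stayed between 33.0 and 94.5 CPM. The 8 measured genes at least 2-fold lower at day 3 were Usp18, Irf9, Ddx58, Rtp4, Xaf1, Slfn8, Ifi35 and Trim30a. With library factors from the trimmed mean of M-values (TMM), which shifted all log2 ratios of this class by 0.10, 0.47, 0.39 and 0.70, 6 of these 8 were 2-fold lower at day 3, Irf9 (-0.86) and Xaf1 (-0.75) being the exceptions. At day 14 Irf9 (-0.43) and Slfn8 (-0.67) were not 2-fold lower either, and 7, 10, 19 and 20 genes were higher at the 4 days.

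**Figure D2:**
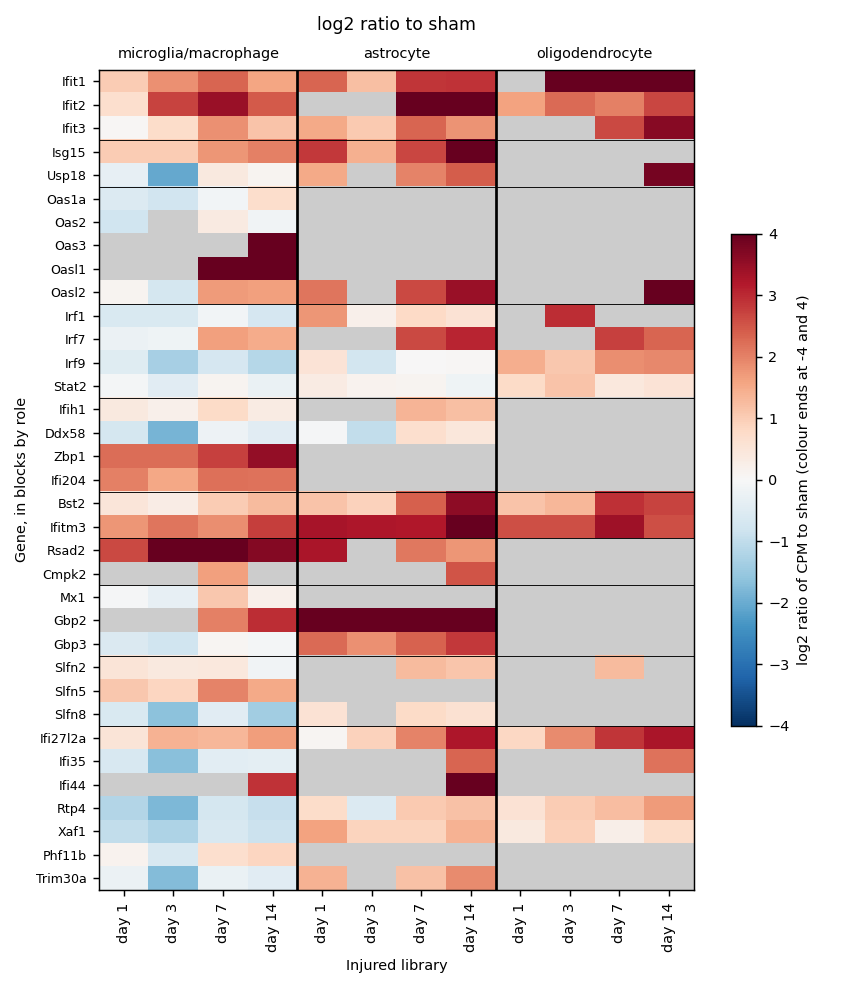
Log2 ratio of each injured library to sham for each of the 35 genes, in 3 cell classes and at 4 days, with genes in blocks by role, grey where the gene was not measured and the colour scale ending at −4 and 4. Astrocytes and oligodendrocytes show hardly any lower values, but only 11 and 4 of their genes had at least 10 CPM in sham. Genes under that level in sham are drawn only where they stood high after injury. In microglia/macrophages 8 of 29 measured genes stand at least 2-fold lower at day 3, beside 24.4% of all measured genes.

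In astrocytes most measured genes of the list were at least 2-fold higher at days 1, 7 and 14 and fewer at day 3. The largest ratio was that of the large GTPase Gbp2. At least 2-fold higher were 13 of 19 measured genes at day 1, 6 of 14 at day 3, 17 of 23 at day 7 and 21 of 26 at day 14, and 0 were as much lower at any day. Of those higher, 7, 4, 11 and 14 were under 10 CPM in sham and were measured only because they stood high after injury. Over all measured genes of the class 12.2%, 6.94%, 4.10% and 14.7% were as much higher, and 14.3%, 12.4%, 10.1% and 8.15% as much lower. The median log2 ratios were 1.52, 0.92, 1.99 and 2.38, beside -0.07, -0.11, -0.15 and 0.13 over all measured genes. Among the 11 genes with at least 10 CPM in sham, 6, 2, 6 and 7 were higher and 0, 1, 0 and 0 lower, the 1 being Trim30a, where 8.25%, 4.42%, 2.48% and 9.15% of all genes with that sham level were higher and 17.7%, 15.5%, 11.9% and 10.3% lower.

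Gbp2, on chr3:142620602-142638008, stood at 0.920 CPM in sham (3 UMIs), then 102, 20.4, 43.0 and 85.5 CPM at days 1, 3, 7 and 14 (797, 108, 722 and 142 UMIs). The log2 ratios were 6.79 (5.24 to 9.07), 4.47, 5.55 and 6.54. At day 1 it held 122 CPM in cluster 25 and 3.96 CPM in cluster 2 of the same library. Gbp3 stood at 8.59 CPM in sham, then 40.8, 30.7, 44.0 and 61.4 CPM (2.25, 1.84, 2.36 and 2.84), so both GTPases were higher in all 4 injured libraries. Ifitm3, which held the most UMIs of the list in the injured libraries, stood at 35.6 CPM in sham, then 351, 334, 328 and 923 CPM (3.3, 3.23, 3.21 and 4.70). Bst2 stood at 27.3 CPM in sham, then 60.7, 51.7, 142 and 324 CPM (1.15, 0.92, 2.38 and 3.57), but at clustering resolution 2 its day 1 ratio was -0.68.

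Several antiviral genes showed a first high at day 1, a lower level at day 3 and a second high later. At resolution 2, where 1569 day 1 cells went unnamed, the summed ratio of day 1 was below that of day 3. Isg15 stood at 5.83 CPM in sham, then 41.1, 15.5, 36.8 and 108 CPM (2.82, 1.41, 2.66 and 4.22). Oasl2 stood at 8.89 CPM in sham, then 39.3, 8.68, 55.7 and 98.1 CPM, where the day 3 library was level with sham. Ifit1 stood at 8.89 CPM in sham, then 44.7, 20.6, 65.2 and 66.2 CPM (2.33, 1.21, 2.87 and 2.90). Ifit3 had the same order of days up to day 7, with 23.6 CPM in sham, then 67.0, 48.5, 119 and 82.5 CPM. Ifit2 did not dip at day 3: it stood at 0.613 CPM in sham (2 UMIs), then 5.10, 6.41, 30.2 and 30.1 CPM. Rsad2 was highest at day 1, with 4.60 CPM in sham, then 43.8, 11.5, 19.7 and 15.7 CPM (3.25, 1.32, 2.10 and 1.77).

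Among the regulators, Usp18 stood at 5.21 CPM in sham, then 14.9, 2.45, 20.6 and 27.7 CPM, with a day 1 ratio of 1.52 that was -0.37 at resolution 2. Irf7 stood at 5.21 CPM in sham, then 8.42, 5.09, 32.2 and 42.7 CPM (2.63 at day 7 and 3.04 at day 14). Irf1 was high at day 1 alone, with 10.4 CPM in sham, then 35.3, 11.9, 18.3 and 15.7 CPM. Irf9 (23.6 to 56.9 CPM) and Stat2 (34.9 to 49.5 CPM) were within 2-fold of sham in every injured library. Ifi27l2a was late, with 21.8 CPM in sham, then 22.8, 41.3, 86.7 and 205 CPM (0.07, 0.92, 1.99 and 3.24). Trim30a stood at 12.3 CPM in sham, then 32.4, 5.66, 27.6 and 45.2 CPM, and Xaf1 at 20.5 CPM in sham, then 62.3, 37.7, 37.7 and 53.6 CPM. Ddx58 and Rtp4 stayed between 11.5 and 36.8 CPM and between 14.3 and 47.0 CPM. The sensors Zbp1 and Ifi204, high in injured microglia/macrophages, reached at most 12 and 14.4 CPM in astrocytes. Ifi44 stood at 0.613 CPM in sham (2 UMIs) and at 27.1 CPM at day 14, and Ifih1 reached 22.9 CPM at day 7. Cmpk2, Ifi35, Slfn2, Slfn8, Oas1a and Phf11b reached at most 21.1, 18.7, 16.1, 14.0, 10.8 and 8.43 CPM, and Slfn5, Mx1, Oas3, Oas2 and Oasl1 at most 9.04, 7.8, 5.42, 4.21 and 3.87 CPM. The day 14 class held 236 cells. An unnamed cluster with 14 astrocyte markers, led by Tagln, Igfbp2 and Lcn2, stood outside the class and summed to 3135 CPM at day 1 (94 cells) and 1157 CPM at day 3 (733 cells).

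In oligodendrocytes fewer genes were measured, and most of those were at least 2-fold higher at days 3, 7 and 14. At least 2-fold higher were 4 of 8 measured genes at day 1, 9 of 10 at day 3, 10 of 12 at day 7 and 12 of 14 at day 14, with 0 as much lower. Of those higher, 3, 6, 8 and 10 were under 10 CPM in sham. They were measured only because they stood high after injury, and the medians below include them. Over all measured genes 6.63%, 10.0%, 5.15% and 3.98% were as much higher, and 4.98%, 14.7%, 5.73% and 3.76% as much lower. The medians were 0.99, 1.61, 2.34 and 2.63, beside 0.02, -0.15, -0.07 and 0.05 over all measured genes. Only 4 genes had at least 10 CPM in sham, of which 1, 3, 2 and 2 were higher and 0 lower, where 4.16%, 5.80%, 2.86% and 2.02% of all such genes were higher and 6.74%, 18.3%, 7.09% and 5.26% lower.

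Ifi27l2a held the most UMIs over the 5 libraries, although Xaf1 held more in sham and at day 1, and it stood at 41.9 CPM in sham, then 74.9, 157, 304 and 407 CPM (0.84, 1.90, 2.86 and 3.28). Ifit1 stood at 1.34 CPM in sham (3 UMIs), then 16.6, 38.6, 25.7 and 45.9 CPM, with 59, 49, 455 and 943 UMIs. Ifit2 stood at 5.35 CPM in sham, then 16.3, 26.0, 21.8 and 34.1 CPM (1.61, 2.28, 2.03 and 2.67). Ifit3 stood at 3.57 CPM in sham, then 15.4, 11.8, 22.4 and 44.6 CPM, so all 3 IFIT genes were above sham in each injured library. When every cell was thinned to 500 UMIs the Ifit2 ratio turned to -0.01 at day 1 and -0.26 at day 3, on few UMIs.

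Irf9, which stood lower in injured microglia/macrophages, stood higher here, with 12 CPM in sham, then 33.1, 25.2, 43.3 and 45.3 CPM (1.46, 1.07, 1.85 and 1.91). Rtp4 likewise stood at 9.36 CPM in sham, then 14.0, 18.9, 21.8 and 30.1 CPM (0.58, 1.01, 1.22 and 1.69), although its day 3 ratio was -0.02 with doublets kept. Irf7 stood at 4.01 CPM in sham, then 8.70, 12.6, 26.6 and 20.4 CPM. Bst2 stood at 9.81 CPM in sham, then 21.6, 24.4, 73.9 and 64.4 CPM (1.14, 1.32, 2.91 and 2.71). Ifitm3 stood at 4.90 CPM in sham, then 29.5, 29.1, 51.3 and 29.6 CPM (2.59, 2.57, 3.39 and 2.59). Xaf1 stood at 77.5 CPM in sham, then 102, 150, 90.6 and 128 CPM, and at days 1, 3 and 14 its level was 136%, 235% and 156% of that in microglia/macrophages. Endothelial cells held more of it in sham and at day 1, 255 and 247 CPM. Gbp2, wide in astrocytes, rested on 1 UMI in sham and stayed at most at 4.49 CPM. Oasl2 and Usp18 reached 30.9 and 25.5 CPM at day 14 from 0.891 CPM (2 UMIs) and 1.78 CPM (4 UMIs) in sham. Stat2 stood between 25.4 and 55.9 CPM, Irf1 between 3.57 and 27.5 CPM, and Isg15 between 0.891 and 14.3 CPM. Ifi35 stood between 4.90 and 22 CPM, Ddx58 between 1.78 and 16.8 CPM, Slfn2 between 3.93 and 17.1 CPM, and Gbp3 between 1.78 and 13.9 CPM. The other 15 genes stayed at or below 11.4 CPM in every library.

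Free RNA from lysed microglia can add UMIs to other cells, so 10 abundant microglial genes, among them C1qa and Tyrobp, were read in the same astrocytes and oligodendrocytes. Their median level in astrocytes was 4.43%, 2.14%, 3.75%, 6.65% and 6.26% of the microglia/macrophage level from sham to day 14, and the highest of the 10 was 5.19%, 2.45%, 4.70%, 7.66% and 8.29%. The summed interferon-stimulated genes stood at 12.8%, 34.1%, 20.3%, 26.6% and 43.3%. Above the highest microglial gene were 24 of 34 compared genes in sham, 35 of 35 at day 1, 27 at day 3, 29 at day 7 and 30 at day 14. Slfn2 and Ifi204 were at or below it in 4 of the 5 libraries. In day 1 astrocytes 7 genes exceeded the microglia/macrophage level itself: Gbp2, Gbp3, Ifi44, Ifit3, Ifit1, Cmpk2 and Rsad2, with Gbp2 at 818% of it.

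In oligodendrocytes the median of the 10 microglial genes was 2.55%, 1.81%, 4.14%, 5.95% and 2.98%, and the summed list stood at 8.33%, 13.4%, 17.2%, 17.2% and 18.8% of the microglia/macrophage level. Above the highest microglial gene were 21 of 34 genes in sham and 27, 23, 27 and 29 of 35 after injury. Isg15 in oligodendrocytes was at or below it in sham, at day 3 (3.01%) and at day 7 (6.40%), so its level there could not be told apart from that background. Ifitm3 in oligodendrocytes was at or below it in sham, at day 3 and at day 14.

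**Figure D3:**
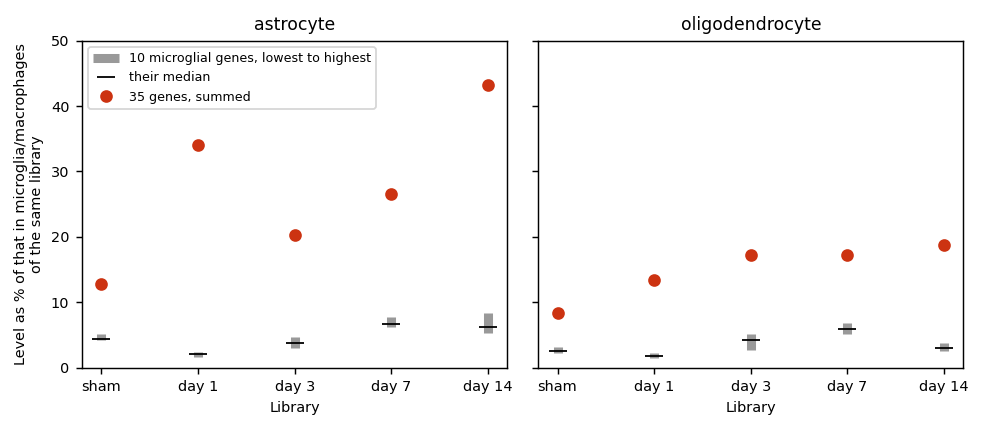
Summed level of the 35 genes as a percentage of the microglia/macrophage level in the same library (points), beside the range and median of 10 microglial genes (bars and ticks), in astrocytes and oligodendrocytes of the 5 libraries. The summed list lies above the highest microglial gene in every library, by the fewest percentage points in sham.

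Outside these classes the list was high in cells of vessels and ventricles and did not follow one course. Endothelial cells (65 to 398 cells) summed to 5737 CPM in sham, then 6173, 3683, 4718 and 5500 CPM after injury, with log2 ratios of 0.11, -0.64, -0.28 and -0.06. At day 3, 21 of 27 measured genes were at least 2-fold lower and 0 higher, where 23.6% of all measured genes of that class were as much lower, and the day 3 class held 73 cells. At day 1 4 of 28 were as much lower (17.1% of all genes), at day 7 5 of 33 (16.5%) and at day 14 3 of 34 (22.7%), with 0, 1 and 3 higher (16.4%, 10.4% and 10.6%). Of the 28, 27, 31 and 31 genes measured with at least 10 CPM in sham, 4, 21, 5 and 3 were lower and 0, 0, 0 and 1 higher, beside 18.8%, 26.5%, 19.3% and 25.4% of all such genes lower and 11.3%, 9.12%, 5.46% and 5.57% higher. With TMM scaling 3, 18, 4 and 1 of the measured genes were lower and 0, 0, 4 and 7 higher. Isg15 stood at 348 CPM in sham, then 278, 76.5, 219 and 293 CPM, and Ifit1 at 238 CPM in sham, then 124, 76.5, 195 and 162 CPM. Irf1 stood at 93.5 CPM in sham, then 74.1, 10.4, 57.9 and 56.6 CPM. Ifitm3 did not share the day 3 low, with 1802 CPM in sham, then 3269, 2375, 1438 and 1814 CPM. In sham, Ifi44 was 45.4-fold, Ifitm3 22.5-fold and Ifit1 22.4-fold higher in endothelial cells than in the other cells of the library. The 10 microglial genes stood at 42.7% to 59.8% of the microglia/macrophage level in the 65 endothelial cells of day 14, and their part in the level there was not tested.

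Oligodendrocyte precursors summed to 343 CPM in sham (61 cells) and 584, 1003 and 1885 CPM at days 3, 7 and 14, with log2 ratios of 0.77 (0.21 to 1.39), 1.55 (0.99 to 2.17) and 2.46 (1.90 to 3.08). At least 2-fold higher were 2 of 14, 5 of 21 and 10 of 27 measured genes, and 0 were lower, beside 10.6%, 8.20% and 9.37% of all higher and 30.2%, 23.5% and 19.7% lower. Of the 13 genes with at least 10 CPM in sham, which here means any UMI, 1, 4 and 8 were higher and 1, 0 and 0 lower, beside 9.78%, 7.76% and 9.05% of all such genes higher and 36.8%, 30% and 24.9% lower. With TMM scaling 5, 9 and 12 of the measured genes were higher. Ifitm3 had 0 UMIs in the sham precursors and stood at 90.2, 90.4 and 214 CPM, Bst2 at 26.4 CPM in sham (2 UMIs), then 52.3, 112 and 219 CPM. In precursors the median of the 10 microglial genes was 3.08% of the microglia/macrophage level in sham and 3.54%, 8.90% and 8.81% at days 3, 7 and 14. At days 7 and 14 the highest of the 10 was 10.2% and 10.8%, and the summed list stood at 18.9% and 32.4%. There 27 and 34 of 35 genes lay above the highest microglial gene. The part of free RNA in the precursor levels was not tested. Neural progenitors and neuroblasts stood at 337 CPM in sham (322 cells) and 409, 339, 1330 and 479 CPM, so the day 7 library (198 cells) was apart from the rest. The 10 microglial genes stood at up to 5.62%, 2.55%, 6.54%, 7.08% and 7.21% of the microglia/macrophage level in these cells from sham to day 14, and the summed list at 11.8%, 11.5%, 8.68%, 25.0% and 8.22%. In the same order 19 of 34 and 32, 23, 32 and 19 of 35 genes lay above the highest microglial gene, so the day 3 and day 14 levels were near that background. At day 7, 16 of 21 measured genes were at least 2-fold higher, beside 12% of all. There Irf1 stood at 83.7 CPM against 8.09 CPM in sham, and Ifitm3 at 212 against 24.3 CPM. At the other days 3 of 13, 3 of 12 and 4 of 14 were higher and 1, 4 and 3 lower (6.07%, 7.89% and 7.14% of all genes higher, 7.35%, 13.7% and 8.92% lower). Of 12 genes with at least 10 CPM in sham, 1, 2, 7 and 3 were higher and 1, 6, 0 and 3 lower at days 1, 3, 7 and 14, beside 3.27%, 4.63%, 6.75% and 3.86% of all such genes higher and 10.1%, 17.3%, 10.4% and 11.7% lower. Day 1 ependymal cells (82 cells) reached 11193 CPM, with 4672 CPM of Ifitm3, 745 CPM of Ifit3, 663 CPM of Gbp2 and 474 CPM of Isg15. Choroid plexus epithelium summed to 5739, 2142 and 1102 CPM at days 1, 3 and 14, and fibroblasts to 2284 and 3363 CPM at days 3 and 7. None of these 3 classes could be set against sham, where each held under 50 cells. The median of the 10 microglial genes in fibroblasts was 2.23% of the microglia/macrophage level at day 3 and 17.4% at day 7.

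Other immune cells differed in their summed level and in their leading genes, some above and some below the microglia/macrophages of their library. Day 1 neutrophils (148 cells) summed to 11469 CPM, with Ifi27l2a at 2075, Ifitm3 at 2034 and Slfn2 at 1115 CPM, where the other cells of that library held 105 CPM of Slfn2. The synthetase genes stood out in them: Oas3 was at 87.9 against 1.19 CPM in the other cells, Oas2 at 101 against 4.16 CPM and Oasl1 at 101 against 4.92 CPM. At days 3, 7 and 14 neutrophils summed to 3467, 7244 and 6765 CPM. T and NK cells summed to 2586 CPM at day 3 (140 cells), 8589 CPM at day 7 (368 cells) and 7106 CPM at day 14 (1866 cells). Ifi27l2a made up the largest share of this, with 1195, 3131 and 2899 CPM, and at day 7 it was 4.72-fold that of the other cells. Oas3 in the same cells was at 69.0 CPM at day 7, 7.91-fold the other cells, and Zbp1 at 188 CPM, 4.92-fold.

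Dendritic cells, nearly all seen at days 7 and 14, summed to 5493 CPM (62 cells) and 7159 CPM (372 cells). In dendritic cells the median of the 10 microglial genes was 21.3% and 10.7% of the microglia/macrophage level. The leading ratios of dendritic cells were those of Mx1, at 177 CPM against 34.4 in other cells at day 7 and 92.9 against 24.5 at day 14, and of Phf11b, at 217 against 49.4 and 248 against 72.7 CPM. At day 14 the ratio of Irf1, at 226 against 63.7 CPM, lay between those of Mx1 and Phf11b. Monocyte/macrophage-like cells alone summed to 13559, 4553, 5324 and 7686 CPM at days 1, 3, 7 and 14 (84, 989, 895 and 1571 cells). Ifitm3 in them stood at 3988, 1471, 672 and 2046 CPM, and Ifi27l2a at 3999, 1234, 986 and 1182 CPM. Plasma cells at day 14 (148 cells) summed to 1992 CPM.

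**Figure D4:**
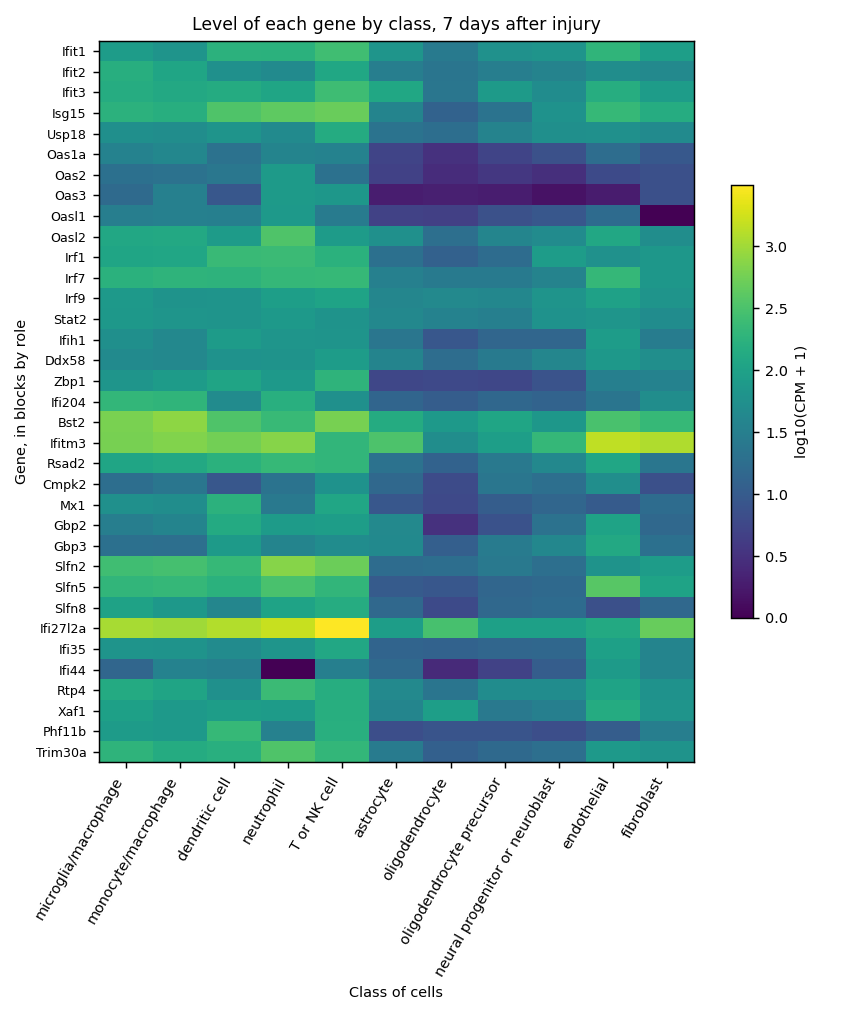
Level of each of the 35 genes in 11 cell classes of the day 7 library, as log10 of CPM plus 1, one cell of the map per gene and class. Ifi27l2a is highest in T and NK cells, at 3131 CPM, and Ifitm3 in endothelial cells, at 1438 CPM.

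A higher level could come from more cells with the RNA or from more RNA per cell, so cells with a UMI of a core set were counted. The core held 12 antiviral genes (Ifit1, Ifit2, Ifit3, Isg15, Usp18, Oas1a, Oas2, Oas3, Oasl1, Oasl2, Rsad2 and Cmpk2), and each cell was thinned to 500 UMIs to put the libraries on 1 depth. In microglia/macrophages 11.1% of sham cells (10.2% to 12.1%) had a core UMI, and 12.5%, 17.1%, 26.4% and 22.4% after injury. In astrocytes the share was 2.78% in sham (2.31% to 3.32%) and 7.74%, 5.51%, 12.8% and 13.6%. In oligodendrocytes it was 0.633% in sham (0.274% to 1.24%) and 2.35%, 3.45%, 4.53% and 6.86%. At this depth the shares stood above sham in all 4 injured libraries in each of the 3 classes, with a dip at day 3 in astrocytes. The dip rested on the 1569 day 1 astrocytes that went unnamed at resolution 2. Without the cells unnamed there, the share was 3.69% (3.03% to 4.44%) at day 1 and 5.54% (4.40% to 6.88%) at day 3. Thinned to 1000 UMIs, microglia/macrophages at day 1 stood slightly below sham, at 21.8% against 22.4%.

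Without thinning the shares were 16.8%, 31.9%, 54.8%, 76.4% and 78.8% in microglia/macrophages, 4.20%, 17.5%, 25.1%, 66.5% and 48.7% in astrocytes and 2.38%, 11.0%, 15.6%, 47.4% and 43.5% in oligodendrocytes. They followed the median depth, which in microglia/macrophages ran from 728 to 10392 UMIs. The exception was oligodendrocytes at days 7 and 14, with median depths of 8900 and 8949 UMIs. In endothelial cells the thinned share was 46.6% in sham and 36.6%, 9.59%, 35.2% and 30.8%. The tenth of microglia/macrophages with the most core UMIs held 91.4% of them in sham and 86.6%, 76.6%, 63.0% and 67.0% at days 1, 3, 7 and 14. Where few cells hold any core UMI, a higher level alone lowers this share. Neither it nor the shares of cells with a core UMI can thus tell more cells from more RNA per cell. Free RNA gives some of the UMIs in all classes, and its part in these shares was not tested.

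Of 11 interferon genes searched, the beta interferon gene Ifnb1 and the gamma interferon gene Ifng made up nearly all UMIs. Ifnb1 had 0 UMIs in sham and 112, 626, 1126 and 24 at days 1, 3, 7 and 14, of which 91.7% to 93.2% lay in microglia-like cells. In microglia/macrophages it stood at 0 CPM in sham, then 12.9, 34.2, 20.8 and 0.319 CPM, and against a floor of 3 UMIs the log2 ratio was at least 4.0, 5.41 and 4.69 at days 1, 3 and 7. A UMI of it was found in 0 of 4530 sham cells, whose upper limit is 0.0814%, and in 1.30% (0.978% to 1.70%), 4.09% (3.49% to 4.76%), 4.44% (3.96% to 4.95%) and 0.185% (0.0923% to 0.330%) of cells after injury. The transcript was thus found in few cells, up to 29 UMIs in 1 cell at day 7. These shares were not thinned, and the median depth was 728 UMIs in sham, 3672 at day 3 and 6708 at day 7. Their order is thus not read, and the sham limit holds only at the depth of sham. The CPM was higher at day 3 than at day 7. Ifng had 4, 15, 164, 819 and 1116 UMIs from sham to day 14, and 73.3% to 92.1% of them lay in T and NK cells. Ifna2 had 9 UMIs at day 7, 5 of them in dendritic cells, and 0 in sham and at day 1.

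The core level was higher in the cells in which Ifnb1 was found. At day 1 the 12 core genes stood at 1755 CPM (1539 to 1992) in the 53 microglia/macrophages with an Ifnb1 UMI and at 351 CPM in the rest. At day 3 they stood at 2964 CPM (2837 to 3095) in 159 cells and at 424 CPM in the rest, and at day 7 at 2337 CPM (2281 to 2394) in 303 cells and at 891 CPM. The median depth was 2228 against 1783 UMIs at day 1, 3580 against 3682 at day 3 and 8070 against 6644 at day 7, so at day 3 the cells with Ifnb1 were no deeper than the rest. Ifit2 at day 3 stood at 695 CPM in cells with Ifnb1 and at 66.7 CPM in the rest, Rsad2 at 697 and 88.8 CPM, and Isg15 at 599 and 84.0 CPM. In the cells without an Ifnb1 UMI the 35 genes summed to 3533, 3801 and 5218 CPM at days 1, 3 and 7, against 3568, 3907 and 5317 CPM in the whole class.

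**Figure D5:**
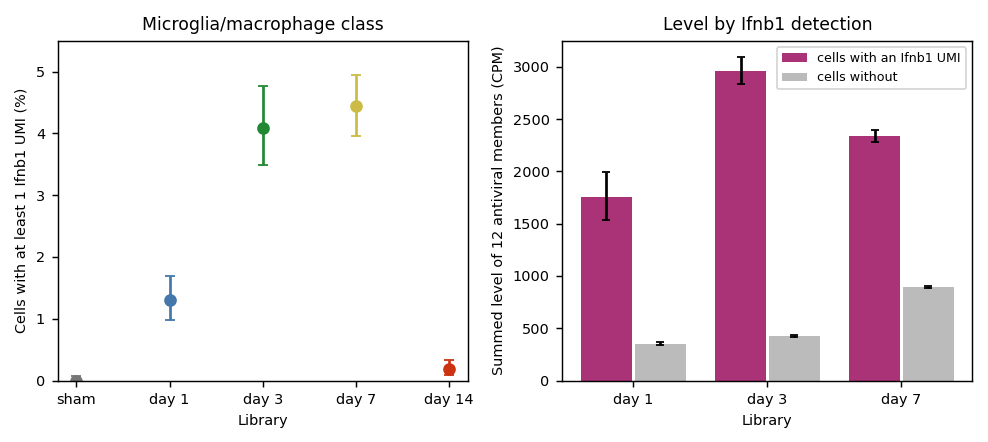
Left, percentage of microglia/macrophages with an Ifnb1 UMI in each library with 95% counting intervals; right, CPM of the 12 core genes in cells with and without an Ifnb1 UMI. The share of cells, not thinned to 1 depth, is 4.09% at day 3 and 4.44% at day 7, while the CPM was 34.2 and 20.8, and the core level in cells with Ifnb1 is 2964 CPM at day 3.

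The genes upstream of the list and its neighbours were read from 7 lists of 130 genes, by the same rule of 2-fold. Their counts stand beside the shares over all measured genes, which in microglia/macrophages were 7.79%, 10.1%, 4.92% and 6.58% higher and 10.3%, 24.4%, 14.6% and 26.5% lower. In astrocytes they were 12.2%, 6.94%, 4.10% and 14.7% higher and 14.3%, 12.4%, 10.1% and 8.15% lower, and in oligodendrocytes 6.63%, 10.0%, 5.15% and 3.98% higher and 4.98%, 14.7%, 5.73% and 3.76% lower. The interferon receptor genes were mostly within 2-fold of sham: of 5 measured in microglia/macrophages 0 were higher and 1, 0, 0 and 0 lower, and of 5 in astrocytes 0 moved either way. Ifnar1, a chain of the type I receptor, stood at 44.9 CPM in sham microglia/macrophages and 64.7, 73.1, 62.0 and 56.2 CPM. Ifngr1, a chain of the gamma receptor, was the 1 lower at day 1, with 488 CPM in sham, then 236, 248, 325 and 262 CPM. Tyk2, a kinase bound to the type I receptor, stood at 30.1 CPM in sham, then 20.6, 10.9, 19.3 and 19.0 CPM.

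Of 13 genes that sense nucleic acids and relay the signal, 2, 8, 3 and 6 were at least 2-fold lower in microglia/macrophages and 0, 1, 0 and 0 higher, beside 10.3%, 24.4%, 14.6% and 26.5% of all measured genes lower. The counts of days 1 and 7 are near that background. Their median log2 ratios were -0.60, -1.31, -0.67 and -0.98, beside -0.06, -0.35, -0.36 and -0.54 over all measured genes. TMM scaling shifted all log2 ratios of this class by 0.10, 0.47, 0.39 and 0.70, and counts under it are not given for this list. Tmem173, which encodes the DNA-signal relay STING, stood at 398 CPM in sham, then 240, 46.0, 141 and 118 CPM. Mavs, the relay of the RNA sensors, stood at 50.6 CPM in sham, then 31.9, 8.44, 20.1 and 18.9 CPM, and Ticam1, an adaptor of Toll-like receptors, at 45.7 CPM in sham, then 26.9, 9.99, 16.0 and 10.8 CPM. In astrocytes 3 of 9, 6 of 9, 2 of 8 and 2 of 8 were lower and 1, 0, 0 and 0 higher. Of 8 genes that restrain the response, 0, 4, 1 and 2 were lower in microglia/macrophages and 0, 1, 0 and 0 higher. The lower counts of days 7 and 14 are near the 14.6% and 26.5% of all measured genes. In astrocytes 3 of 6 were higher at day 1. They were Socs1, with 5.21 CPM in sham, then 52.0, 0.943, 5.59 and 4.21 CPM, Socs3, with 16.9 CPM in sham, then 340, 56.6, 14.2 and 28.3 CPM, and Ptpn2, with 26.1 CPM in sham, then 61.2, 21.3, 19.6 and 32.5 CPM. The first 2 are feedback inhibitors of JAK kinases and the other is a phosphatase of STAT proteins. Values of these 3 genes at resolution 2, where 1569 day 1 astrocytes went unnamed, are not given here.

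Of 64 other interferon-induced genes, 6 of 50, 5 of 49, 13 of 55 and 19 of 57 measured in microglia/macrophages were higher and 6, 14, 0 and 2 lower, beside 7.79%, 10.1%, 4.92% and 6.58% of all measured genes higher and 10.3%, 24.4%, 14.6% and 26.5% lower. The higher counts of days 1 and 3 are near that background. Ifi207, of the DNA sensor family of Ifi204, stood at 12.6 CPM in sham, then 178, 191, 130 and 110 CPM, and Ifi211 of the same family at 1.88 CPM in sham, then 30.2, 18.3, 41.1 and 63.8 CPM. Ifitm1 and Ifitm2, neighbours of Ifitm3, stood at 1.88 CPM in sham, then 35, 160, 37.5 and 60.1 CPM, and at 14.5 CPM in sham, then 166, 350, 66.2 and 232 CPM. In astrocytes 3 of 30, 4 of 28, 11 of 33 and 17 of 35 were higher and 0, 2, 1 and 1 lower, and in oligodendrocytes 0 of 14, 6 of 16, 10 of 19 and 9 of 19 were higher and 1, 0, 0 and 0 lower. In this list too, a gene low in sham could be measured only if it stood high after injury. Counts among its genes with at least 10 CPM in sham are not given here. B2m, the light chain of MHC class I, was picked after its values were seen. It stood at 156 CPM in sham oligodendrocytes and 174, 346, 482 and 1051 CPM, and at 336 CPM in sham astrocytes and 324, 301, 545 and 827 CPM.

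The 22 GTPases and chemokines known for their response to interferon gamma stood apart between classes. In astrocytes 8 of 8, 2 of 3, 5 of 5 and 7 of 7 measured were higher and 0 lower, beside 12.2%, 6.94%, 4.10% and 14.7% of all measured genes higher, though most were measured only because they stood high after injury. Cxcl10, a chemoattractant of T cells, stood at 3.68 CPM in sham astrocytes and 509, 25.5, 113 and 48.2 CPM, and Iigp1, an immunity-related GTPase, at 0.613 CPM in sham (2 UMIs), then 94.8, 13.6, 38.6 and 30.7 CPM. Irgm1 stood at 19.6 CPM in sham, then 180, 77.0, 57.8 and 73.4 CPM, and Gbp7 at 21.5 CPM in sham, then 90.7, 31.7, 53.3 and 63.8 CPM. All 4 were highest at day 1. Their values at resolution 2, where 1569 day 1 astrocytes with 43.2% of the class's UMIs went unnamed, are not given here. In microglia/macrophages 1 of 8, 1 of 8, 3 of 10 and 5 of 12 were higher and 2, 5, 1 and 1 lower, beside 7.79%, 10.1%, 4.92% and 6.58% of all measured genes higher and 10.3%, 24.4%, 14.6% and 26.5% lower. There Cxcl10 stood at 62.4 CPM in sham, then 659, 670, 317 and 199 CPM, and Iigp1 at 0.269 CPM in sham (1 UMI), then 12.8, 8.27, 25.5 and 81.1 CPM.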

How the data were processed

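The deposited matrices hold UMI counts per gene and barcode, which the authors made with Cell Ranger 4.0.0, per the file headers, and are not normalized. Per the submitters' processing notes the builds were GRCm38 and mm10 and the tools included STAR 2.5.37 as well as Seurat 3.2.0, all with no role given. Barcodes with at least 500 UMIs, 200 genes and at most 20% mitochondrial UMIs were kept, and doublets called by Scrublet in each library were removed (scanpy 1.11.5, scipy 1.17.1, numpy 2.4.6, pandas 2.3.3, matplotlib 3.10.9). Counts scaled to 10000 per cell and log-transformed gave 2000 variable genes, 30 principal components, 15 neighbours and Leiden clusters (leidenalg 0.10.2, resolution 1). The 35 genes and 130 pathway genes, 165 in all, were left out of the clustering, and no batch correction was used.

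Names of clusters came from 225 markers of 20 classes. A marker counted for a cluster if found in at least 10% of its cells and at least 2-fold over the other cells, with 10 CPM added to both, and a name needed 3 markers. Names stand for likeness to markers. The list of receptor kinases and STAT genes is not reported here as a count. The members and lists were chosen with earlier results of these data known.

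CPM were summed UMIs of a class in a library over all UMIs of that class. The 95% intervals are exact: Poisson for sums, conditional binomial for ratios of CPM, and Clopper-Pearson for shares. Classes were compared with at least 50 cells in both libraries. A gene with 0 UMIs in sham was set against a floor of 3 UMIs. In each of the 3 main classes the genes described with all values were those measured and at least 2-fold from sham in at least 2 injured libraries in 1 direction, at most 12 by the largest log2 ratio, with the gene of most UMIs. The remaining genes were added by role, and in other classes the 3 genes with the highest CPM and the 3 with the largest ratio to the other cells were eligible. The calculation of ratios was tested on simulated data. Alternatives were another scaling (TMM, edgeR 4.0.16), other limits on cells and genes, thinning, other clusterings and leaving out the gene with the most UMIs.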

Additional observations from a re-analysis of the deposited data

Results flagged for a closer look

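Some genes stood at least 2-fold higher than sham in one class and at least 2-fold lower in another class of the same library, and none of these differences was tested. Most involve endothelial cells at day 3 (73 cells). There the log2 ratio to sham was -1.43 for Bst2, -2.10 for Gbp2, -1.64 for Ifit1, -2.61 for Ifit2, -2.29 for Ifit3, -3.16 for Irf1, -2.03 for Irf9 and -2.19 for Isg15. At the same day Gbp2 stood at 4.47, Ifit1 at 1.21, Ifit3 at 1.04 and Isg15 at 1.41 in astrocytes. In oligodendrocytes Bst2 stood at 1.32, Ifit1 at 4.85, Ifit2 at 2.28 and Irf1 at 2.95, and in microglia/macrophages Ifit1 stood at 1.84 and Ifit2 at 2.71. Few UMIs lie behind some of the endothelial ratios, because that whole class held 117659 UMIs in sham and 287541 at day 3. Gbp2, with 59.5 CPM in sham and 13.9 CPM at day 3, is an example. No counting interval is given here for these ratios.

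Irf9 at day 3 stood at -1.33 in microglia/macrophages and -1.38 in neural progenitors and neuroblasts, against 1.07 in oligodendrocytes. At day 14 its values were -1.13 and -1.38 against 1.91. Rtp4 at day 3 stood at -1.79 in microglia/macrophages and -2.05 in neural progenitors, against 1.01 in oligodendrocytes. The oligodendrocyte value was slightly below sham with doublets kept. At day 14 Rtp4 stood at -1.47 in neural progenitors, against 1.17 in astrocytes and 1.69 in oligodendrocytes. Usp18 at day 14 stood at -1.67 in neural progenitors, against 2.41 in astrocytes and 3.84 in oligodendrocytes. Trim30a at day 7 stood at 1.17 in astrocytes and -1.13 in endothelial cells, and Xaf1 at day 14 at 1.38 in astrocytes and -1.38 in endothelial cells. With TMM scaling 5 of these values were under 2-fold: Irf9 in microglia/macrophages at day 3 (-0.86) and day 14 (-0.43), Rtp4 in astrocytes at day 14 (0.95), Trim30a in endothelial cells at day 7 (-0.86) and Xaf1 there at day 14 (-0.96). The neural progenitor values at sham rest on 17 UMIs of Irf9, 14 of Rtp4 and 11 of Usp18.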

How the results depend on the processing

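Of 128 alternative values of the 12 summed log2 ratios, 62 lay within the counting interval, 66 moved outside it and 0 changed direction. TMM scaling gave 0.42, 0.92, 1.29 and 1.73 at days 1, 3, 7 and 14 in microglia/macrophages and 1.95, 1.28, 2.17 and 2.57 in astrocytes, and 0 lower genes in microglia/macrophages at day 14, as did ratios relative to the median of all genes (0). Cells with at least 1000 UMIs gave 0.21, 0.34, 0.79 and 0.92, and in astrocytes 1.25, 0.60, 1.43 and 2.27. Without the gene of most UMIs the values were 0.29, 0.20, 0.80 and 0.88, in astrocytes 1.39, 0.48, 1.72 and 2.28, and in oligodendrocytes 1.65 at day 7 and 1.81 at day 14. A mean over cells without weights gave 0.50, 0.86 and 0.93 in microglia/macrophages at days 3, 7 and 14, 1.63, 2.10 and 2.36 in astrocytes at days 1, 7 and 14, and 0.85 and 1.18 in oligodendrocytes at days 1 and 3. Thinning to 500 UMIs gave 0.53, 0.86 and 0.95 in microglia/macrophages at days 3, 7 and 14, 1.60, 1.02, 2.08 and 2.37 in astrocytes and 0.79, 0.95, 1.69 and 1.94 in oligodendrocytes. Without the top 1% of cells the values were 0.50, 0.93 and 1.07 in microglia/macrophages and 1.25, 2.05 and 2.96 in astrocytes at days 3, 7 and 14, and 0.76 in oligodendrocytes at day 1. Microglia-like clusters alone, an alternative chosen after seeing the data, gave 0.40, 0.96 and 0.87 at days 3, 7 and 14. In astrocytes, keeping doublets gave 1.20, 0.58, 1.56 and 2.16, resolution 2 gave 0.66 at day 1, clustering with the members and pathway genes gave 1.38, 2.05 and 2.92 at days 3, 7 and 14, at most 10% mitochondrial UMIs gave 2.22 at day 7, and counting the unnamed cluster as astrocytes, chosen after seeing the data, gave 1.40 at day 3 and 2.96 at day 14. Resolution 2 left 1569 day 1 astrocytes unnamed. It also left 1473 day 7 and 1604 day 14 microglia/macrophages unnamed, with 5.60% and 36.8% of the class's UMIs. A minimum of 50 CPM left 4 and 10 higher genes in microglia/macrophages at days 1 and 14, 2, 1, 4 and 6 in astrocytes and 0, 1, 1 and 1 in oligodendrocytes. With no minimum 20, 11 and 28 were higher in astrocytes at days 1, 3 and 7 and 4 lower at day 3, and in oligodendrocytes 17, 19, 28 and 25 were higher and 1 and 1 lower at days 1 and 3. At 1.5-fold 7, 13, 3 and 5 were lower in microglia/macrophages and 2 in astrocytes at day 3. Of 1164 alternative values of single genes, 5 reversed: Ifit2 in oligodendrocytes when thinned (-0.01 at day 1 and -0.26 at day 3), Rtp4 there with doublets kept (-0.02 at day 3), and Usp18 (-0.37) and Bst2 (-0.68) in day 1 astrocytes at resolution 2. Shares of cells with a core UMI, thinned to 1000 UMIs, were 22.4%, 21.8%, 27.2%, 40.6% and 34.9% in microglia/macrophages, 5.73%, 12.6%, 9.70%, 23.0% and 23.6% in astrocytes and 1.71%, 5.2%, 6.07%, 9.77% and 11.3% in oligodendrocytes, and not thinned 16.8%, 31.9%, 54.8%, 76.4% and 78.8%, 4.20%, 17.5%, 25.1%, 66.5% and 48.7%, and 2.38%, 11.0%, 15.6%, 47.4% and 43.5%. The cause of these moves was not tested. Depth limits genes of few UMIs in sham. No paired analysis was possible because each group is 1 library.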
